A study of Mus musculus with 7 samples.

Results

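Toll-like receptors (TLRs) and the adaptor proteins that serve them were examined in neutrophils sorted from mouse livers 24 h after acetaminophen-induced liver injury (AILI). The genes were taken by symbol from a list of 10, namely Tlr1, Tlr2, Tlr4, Tlr6, Tlr7, Tlr8, Tlr9, Tlr13, Myd88 and Unc93b1. Of these, 9 had a row among the 16047 genes measured, and Tlr9 was not analysed here. "PBS neutrophils" came from 4 livers (replicates 5 to 8) of C57BL/6 mice injected with PBS, and "MC-21 neutrophils" from 3 livers (replicates 2 to 4) of C57BL/6 mice injected with medium conditioned with MC-21, an antibody against the chemokine receptor CCR2 that ablates circulating Ly6Chi monocytes. Mice of both groups received acetaminophen (300 mg/kg), and the injections of antibody medium (400 µL at 29 µg/mL) or PBS began 12 h before it and were repeated every 24 h. The study's methods give male mice of 8 to 12 weeks. All 7 livers had therefore been injured, and no library came from an uninjured liver. From each liver 50000 cells were sorted as CD11b+Ly6CloCX3CR1-GFP-Ly6G+. The labels give the strain as C57BL/6, whereas this gate reads a GFP reporter of Cx3cr1, and the labels do not say which libraries came from reporter mice.

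TLRs are sensors of the innate immune system that recognize microbial molecules and, in sterile injury such as acetaminophen toxicity, molecules released by dying cells. TLR1, TLR2, TLR4 and TLR6 act mainly at the cell surface, whereas TLR7, TLR8, TLR9 and TLR13 sense nucleic acids inside endosomes, to which the chaperone UNC93B1 carries them. MyD88 links the intracellular domains of these receptors to the IRAK kinases, TRAF6 and finally NF-κB, which drives cytokine production and prolongs neutrophil survival.

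Expression was given as RPKM, a read count divided by the length of the transcript and by the mapped reads of the library, from 3′ libraries, in which the reads lie near the end of each transcript. The steps between low RPKM values gave depths of about 2660000 to 3960000 reads in PBS libraries and 1590000 to 3570000 reads in MC-21 libraries, the shallowest being MC-21 replicate 3. Of 11 neutrophil markers, none passed an adjusted p under 0.05 in limma. At an unadjusted p under 0.05, 1 was lower (Camp) and 3 were higher (S100a8, S100a9 and Retnlg) in MC-21 neutrophils. The shares of all genes at this cutoff were 11.2% lower and 3.59% higher. The sum of the 11 markers was 18006 to 30454 RPKM in PBS libraries and 27370 to 40781 RPKM in MC-21 libraries. Most of it was S100a9, a calcium-binding protein that neutrophils make in bulk, at 12275 to 20590 RPKM and 18142 to 25041 RPKM. Camp and Ltf, granule proteins made in neutrophil precursors and chosen after their values were seen, were low, at 6.04 to 49.6 RPKM and 2.10 to 15.0 RPKM for Camp and at 1.06 to 10.2 RPKM and 1.57 to 3.78 RPKM for Ltf. The summed level of 12 monocyte and macrophage markers was 476 to 562 RPKM in PBS libraries and 217 to 300 RPKM in MC-21 libraries, so the groups did not overlap. Of these 12 markers, 5 were lower in MC-21 neutrophils (limma, adjusted p under 0.05), beside 0.427% of all genes tested. These 5 were C1qa, C1qb and C1qc and, chosen after their values were seen, Ccr2 and Fcgr1. None of the 12 was at 0 in all libraries. Ccr2, the receptor that MC-21 binds, was at 1.91 to 3.26 RPKM in PBS libraries and 0 to 0.390 RPKM in MC-21 libraries. Summed endothelial markers reached 856 to 2059 RPKM in PBS libraries and 1080 to 1963 RPKM in MC-21 libraries. In bulk samples such as these, fewer cells of a type and less RNA per cell cannot be told apart.

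The receptors and adaptors spanned a wide range of levels in liver neutrophils. The adaptor Myd88 was highest per length, with a mean over the 7 libraries of 59.0 RPKM, followed by Tlr2 at 45.0 RPKM, Unc93b1 at 43.2 RPKM and Tlr13 at 31.1 RPKM. Tlr6 was intermediate at 11.7 RPKM. Tlr1 at 3.94 RPKM and Tlr4 at 3.60 RPKM were low, and Tlr8 at 1.05 RPKM and Tlr7 at 0.703 RPKM were close to the limit of these libraries. Over all 7 libraries the RPKM ranges of neighbours in this order were separate for Tlr13 and Tlr6, for Tlr6 and Tlr1, and for Tlr4 and Tlr8. Among overlapping neighbours, Myd88 exceeded Tlr2 in 7 of 7 libraries and Unc93b1 exceeded Tlr13 in 6 of 7. Tlr2 exceeded Unc93b1 in only 4 of 7, namely the 3 MC-21 libraries and PBS replicate 7, so that the order of this pair is not settled. Tlr1 exceeded Tlr4 in the 4 PBS libraries and was below it in the 3 MC-21 libraries. As each transcript yields reads mainly from its end, division by the whole transcript length lowers long transcripts. Without that division, as reads scaled to the depth of the library alone (RPM), the order differed and was not the same in both groups. In PBS neutrophils Tlr2 (123 RPM), Myd88 (115 RPM), Unc93b1 (111 RPM) and Tlr13 (106 RPM) were close together. In MC-21 neutrophils Tlr13 (149.7 RPM) and Tlr2 (135 RPM) stood above Myd88 (109 RPM) and Unc93b1 (80.1 RPM). By its mean, Tlr4 stood above Tlr1 in both groups on this scale, at 13.9 against 12.7 RPM in PBS and 15.8 against 7.41 RPM in MC-21 neutrophils. In PBS replicate 6, however, Tlr1 was above Tlr4, at 14.3 against 13.5 RPM, and the reads of both genes are approximate.

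**Figure D1:**
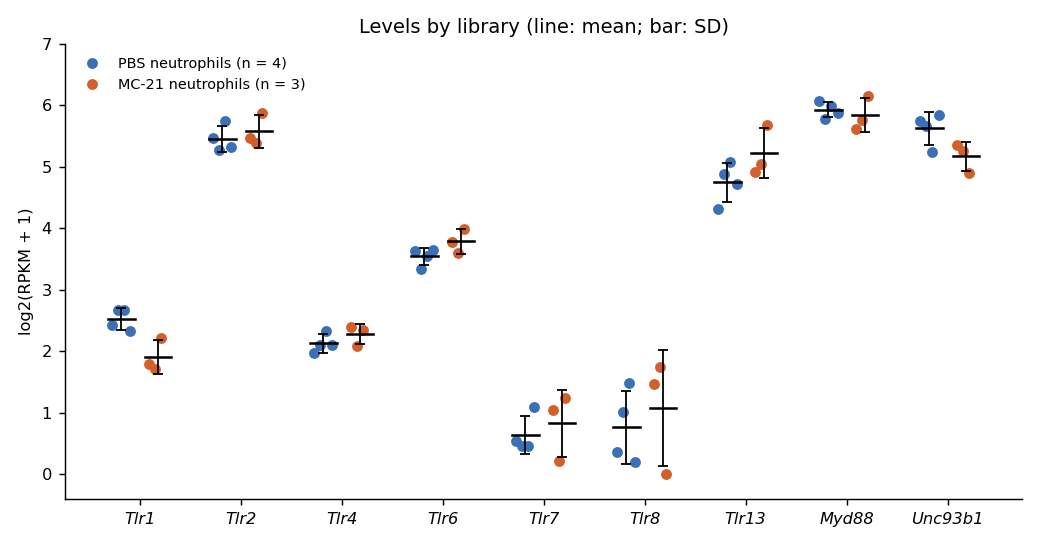
Expression of the 9 genes in each library, as log2(RPKM + 1) on the vertical axis, with PBS neutrophils (n = 4) in blue and MC-21 neutrophils (n = 3) in orange; lines are means and bars are SD. The points of Tlr1 do not overlap between the groups, those of every other gene shown do, and Tlr8 has the widest range of values.

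The comparison of MC-21 with PBS neutrophils addressed how the transcripts of liver neutrophils differ when Ly6Chi monocytes do not infiltrate the injured liver. Of the 9 genes, 8 had a mean of at least 1 RPKM and were tested, and Tlr7 was not. None of the 8 passed an adjusted p under 0.05 in limma (Benjamini-Hochberg over 9594 genes), where 0.625% of all genes did (0.427% lower and 0.198% higher), and none passed an unadjusted p under 0.05 with a fold change of at least 2, where 2.7% of all genes did. At an unadjusted p under 0.05 alone, 2 were lower in MC-21 neutrophils (Tlr1 and Unc93b1) and 0 were higher, where 11.2% of all genes were lower and 3.59% were higher. The groups were apart, with every MC-21 value below every PBS value, for 1 of the 8 (Tlr1), where 10.2% of all genes were lower without overlap and 13.3% had no overlap in either direction. Counts of 0 to 2 among 8 genes are close to what these background shares give and are no result about the family.

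A shift common to all genes bears on the direction of small differences. The median log2 difference over all genes tested was −0.15, MC-21 minus PBS, and the median over the 8 genes was 0.13. Of the 8, 5 had a difference above 0, where 30.6% of all genes did. With each library centred on its median, an alternative scaling, the medians were 0.02 over all genes and 0.30 over the 8, and 6 of the 8 were above 0, beside 52.7% of all genes, the gene that changed side being Myd88. With this centring Tlr13 had an unadjusted p under 0.05, and neither Tlr1 nor Unc93b1 did (limma, adjusted p = 0.369, 0.489 and 0.575). Over all genes, calls at an adjusted p under 0.05 numbered 41 lower and 19 higher as deposited, and 30 lower and 44 higher with centred libraries.

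**Figure D2:**
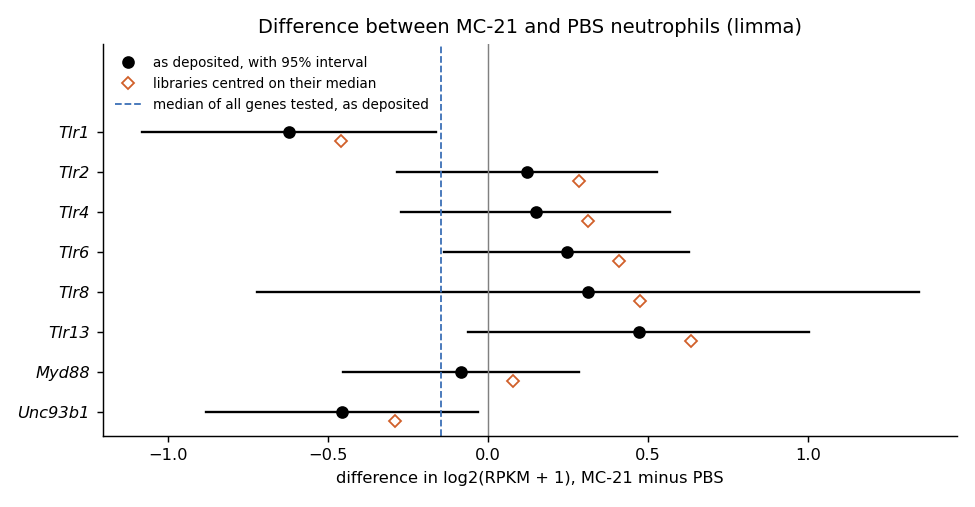
Difference in log2(RPKM + 1), MC-21 minus PBS, for the 8 genes tested by limma; filled circles with lines are values as deposited with 95% intervals, open diamonds are values with each library centred on its median, and the dashed line is the median of all genes at −0.15. The intervals of Tlr1 and Unc93b1 lie below 0, and the interval of each of the other 6 includes 0.

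Tlr1, the partner of TLR2 in sensing triacylated bacterial lipopeptides, was the only gene of the 8 whose groups did not overlap in the values as deposited. Its values in PBS neutrophils were 4.38, 5.41, 5.38 and 4.05 RPKM (replicates 5 to 8), and in MC-21 neutrophils 2.47, 2.26 and 3.65 RPKM (replicates 2 to 4). Each PBS library was above each MC-21 library, and the nearest values were 4.05 RPKM in PBS replicate 8 and 3.65 RPKM in MC-21 replicate 4. This separation depended on the scaling. By percentile among all genes of its library, Tlr1 in MC-21 replicate 4 (61.6) was above PBS replicates 5 (61.2) and 8 (58.8). The means were 4.81 ± 0.694 RPKM (SD, n = 4) and 2.80 ± 0.747 RPKM (SD, n = 3). The log2 difference was −0.62 (SE 0.20, 95% interval −1.08 to −0.16), with an adjusted p of 0.227 by limma, so the difference exceeded the spread between libraries when Tlr1 was taken singly but did not pass the correction over all genes. The unadjusted p was 0.05 or more by limma with centred libraries, with quantile normalization and without MC-21 replicate 3 (adjusted p = 0.489, 0.492 and 0.374). A two-sided exact permutation test gave p = 0.0286, the smallest that 4 against 3 libraries allow. The test uses the same values as the absence of overlap and is no separate support for it. Of all genes tested, 13.3% had no overlap in either direction. Without each library in turn the log2 difference lay between −0.78 and −0.52. These values rest on few reads, approximately 32, 48, 38 and 43 in the PBS libraries and 23, 10 and 27 in the MC-21 libraries, as estimated from the length of the annotated transcript. Monocyte and macrophage markers fell between the same groups (above), and their part in the difference of Tlr1 was not tested.

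Ratios within a library are free of its scaling, and they show how Tlr1 stood against the other genes. The ratio of Tlr1 to Tlr2 was 0.101 to 0.143 in PBS neutrophils and 0.0556 to 0.0630 in MC-21 neutrophils. The ratio to Tlr6, its neighbour on the chromosome, was 0.351 to 0.593 and 0.195 to 0.244. Tlr1 exceeded Tlr4 in every PBS library (ratio 1.23 to 1.63) and was below it in every MC-21 library (0.581 to 0.890). The ratio of Tlr1 to Unc93b1 overlapped between the groups. Among the 21 ratios of the 7 genes above 0 in all libraries and tested, 8 did not overlap, 5 of them with Tlr1 as numerator and lower in MC-21 neutrophils. Over all pairs of tested genes, 12.0% of ratios were apart in this way. The ratios were chosen after the values were seen, they share genes, and they carry no test.

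**Figure D3:**
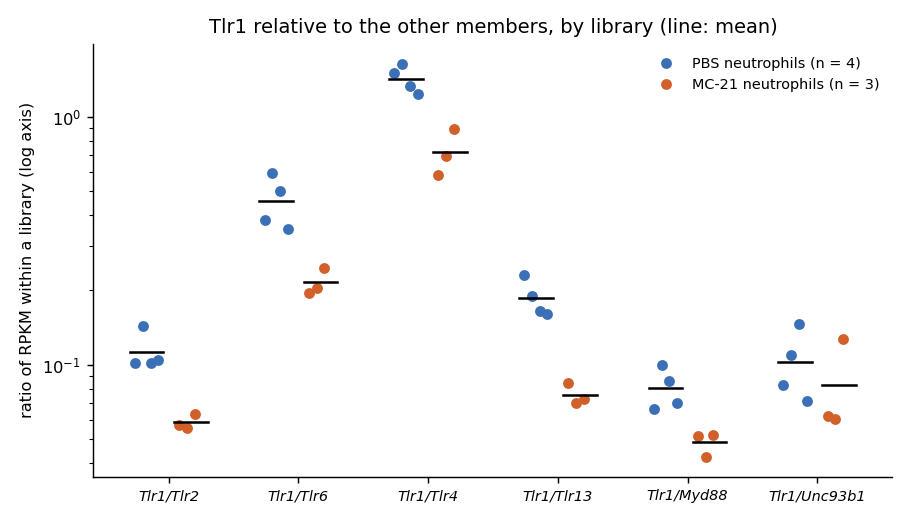
Ratio of the RPKM of Tlr1 to that of 6 other genes in each library, on a log axis, with PBS neutrophils (n = 4) in blue, MC-21 neutrophils (n = 3) in orange and lines at the means. The groups are apart for Tlr2, Tlr6, Tlr4, Tlr13 and Myd88, and they overlap for Unc93b1.

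Tlr1 and Tlr6 lie side by side on the minus strand of chromosome 5, Tlr1 at chr5:65316050-65324000 and Tlr6 at chr5:65344345-65351287 (mm9, GENCODE annotation), with 20344 bases and 0 protein-coding genes between them. Their transcripts share coding sequence, which matters for how reads are assigned. Of all 50-base words in the annotated transcripts, 17.4% of those of Tlr1 and 17.8% of those of Tlr6 occur in both genes. The longest identical stretch is 229 bases and lies within 1 exon, in the coding sequence, at chr5:65316776-65317004 in Tlr1 and chr5:65345067-65345295 in Tlr6 (mm9, minus strand). It is shown because a read inside it cannot be placed in either gene.
Tlr1 and Tlr6, identical stretch: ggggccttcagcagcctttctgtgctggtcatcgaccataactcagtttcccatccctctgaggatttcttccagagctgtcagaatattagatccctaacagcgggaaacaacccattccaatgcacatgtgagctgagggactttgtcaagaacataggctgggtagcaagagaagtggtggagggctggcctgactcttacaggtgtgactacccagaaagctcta
The last shared base lies 337 bases before the annotated end of Tlr1 and 333 bases before that of Tlr6. The sources used here do not state how reads that map to both genes were counted, so their split between Tlr1 and Tlr6 is uncertain. None of the other 7 genes shared a 50-base word with another of the 9.

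The start regions of these neighbours are shown because the ratio of their values did not overlap between the groups, although it was not tested. Each window holds 250 bases before and 50 bases after a start site (RefSeq, GRCm38.p6), and capitals mark GAGGAA on either strand, the core bound by PU.1, an ETS factor of myeloid cells.
Tlr1 upstream start, chr5:64933509-64933808, minus strand: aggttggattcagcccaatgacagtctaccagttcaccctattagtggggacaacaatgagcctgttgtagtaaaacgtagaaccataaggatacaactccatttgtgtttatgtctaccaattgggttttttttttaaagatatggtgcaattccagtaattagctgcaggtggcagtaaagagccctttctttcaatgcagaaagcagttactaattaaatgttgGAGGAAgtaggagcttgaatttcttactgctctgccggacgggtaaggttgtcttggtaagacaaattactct
Tlr1 downstream start, chr5:64932650-64932949, minus strand: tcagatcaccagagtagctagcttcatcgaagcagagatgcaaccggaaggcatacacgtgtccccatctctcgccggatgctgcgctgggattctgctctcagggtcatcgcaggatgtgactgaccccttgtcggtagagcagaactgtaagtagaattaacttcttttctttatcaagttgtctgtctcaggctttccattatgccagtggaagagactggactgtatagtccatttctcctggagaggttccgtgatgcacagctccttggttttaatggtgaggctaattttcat
Tlr6 upstream start, chr5:64959999-64960298, minus strand: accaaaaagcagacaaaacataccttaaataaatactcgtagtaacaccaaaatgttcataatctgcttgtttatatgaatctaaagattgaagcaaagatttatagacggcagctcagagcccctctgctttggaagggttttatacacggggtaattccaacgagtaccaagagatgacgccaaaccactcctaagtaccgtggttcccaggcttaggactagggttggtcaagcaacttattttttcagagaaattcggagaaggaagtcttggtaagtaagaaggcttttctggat
Tlr6 downstream start, chr5:64959117-64959416, minus strand: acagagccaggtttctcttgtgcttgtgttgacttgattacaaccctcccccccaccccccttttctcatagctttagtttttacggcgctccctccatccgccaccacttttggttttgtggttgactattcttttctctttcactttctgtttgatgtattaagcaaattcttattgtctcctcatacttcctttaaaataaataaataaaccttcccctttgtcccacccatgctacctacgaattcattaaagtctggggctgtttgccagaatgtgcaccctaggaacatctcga
The upstream Tlr1 window held GAGGAA with its first base 23 bases before the start site, and the downstream Tlr1 window and both Tlr6 windows did not hold it. The downstream Tlr6 window held the element bound by interferon regulatory factors, GAAA and GAAA with 2 bases between them, on the other strand and in 2 overlapping copies. The first bases of these copies lie 116 and 110 bases before the start site. GAGGAA was found in 28.3% of all 32851 mouse promoter windows of this length and the interferon regulatory factor element in 3.44%. The Myd88 window held the latter element too, 40 bases before its start site. Elements of the transcription factors NF-κB, CEBP and AP-1 were also searched. The upstream Tlr6 window held 1 NF-κB match and the downstream Tlr6 window 1 CEBP match, elements found in 50.8% and 10.8% of all windows. Of the windows not shown, that of Tlr2 held 5 NF-κB matches, some overlapping, and that of Tlr8 held 2 CEBP matches. These matches are descriptions of letters, and binding was not measured.

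Tlr2 (chr3:83640195-83645689, minus strand, mm9), which senses bacterial lipopeptides together with TLR1 or TLR6, had the highest RPKM of the receptors analysed here, although Tlr13 had more reads in PBS replicate 6 and in MC-21 replicates 3 and 4. It was at 43.3, 37.9, 52.8 and 39.0 RPKM in PBS neutrophils and at 43.2, 40.7 and 57.9 RPKM in MC-21 neutrophils. MC-21 replicate 4 was the highest library, and the other MC-21 libraries lay among the PBS values. This gave a log2 difference of 0.12 (SE 0.18, 95% interval −0.28 to 0.53, adjusted p = 0.793 by limma). The value was −0.031 without MC-21 replicate 4. Behind these values stood 342 to 441 reads in PBS libraries and 185 to 460 reads in MC-21 libraries.

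Tlr6, the partner of TLR2 for diacylated lipopeptides, was at 11.4, 9.12, 10.7 and 11.6 RPKM in PBS neutrophils and at 12.7, 11.1 and 14.9 RPKM in MC-21 neutrophils. Of the MC-21 libraries, replicates 2 and 4 were above every PBS library, and replicate 3 was within their range. MC-21 minus PBS, the log2 difference was 0.25 (SE 0.17, 95% interval −0.14 to 0.63, adjusted p = 0.544 by limma). It was 0.14 without MC-21 replicate 4, 0.18 without PBS replicate 6 and 0.41 with centred libraries. Tlr6 thus lay on the other side of 0 from its neighbour Tlr1, and the ratio of these genes did not overlap between the groups. Relative to Myd88, Tlr6 was at 0.168 to 0.200 in PBS neutrophils and 0.208 to 0.264 in MC-21 neutrophils, without overlap.

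Tlr4 (chr4:66488618-66591318, plus strand, mm9), the receptor for lipopolysaccharide (LPS), was at 2.93, 3.31, 4.05 and 3.29 RPKM in PBS neutrophils and at 4.26, 3.26 and 4.10 RPKM in MC-21 neutrophils. MC-21 replicates 2 and 4 were slightly above the highest PBS library, and replicate 3 was within the PBS range. For Tlr4 the log2 difference was 0.15 (SE 0.19, 95% interval −0.27 to 0.57, adjusted p = 0.751 by limma). Fewer reads stood behind Tlr4 than behind Tlr2, at approximately 33 to 53 in PBS libraries and 21 to 62 in MC-21 libraries. Ly96, whose product MD-2 binds LPS for TLR4, was at 0 in 5 libraries and at 0.498 and 0.419 RPKM in PBS replicates 6 and 8, and was chosen after its values were seen.

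Unc93b1 (chr19:3935186-3949340, plus strand, mm9) encodes the chaperone that brings the endosomal TLRs to their compartment. Its values were 53.0, 49.6, 36.8 and 56.7 RPKM in PBS neutrophils and 39.8, 37.4 and 28.9 RPKM in MC-21 neutrophils. All MC-21 libraries were below 3 of the PBS libraries, and PBS replicate 7 lay among the MC-21 values. The means were 49.0 ± 8.63 RPKM (SD, n = 4) and 35.4 ± 5.74 RPKM (SD, n = 3). This corresponded to a log2 difference of −0.45 (SE 0.19, 95% interval −0.88 to −0.03), with an unadjusted p of 0.0383 and an adjusted p of 0.317 by limma. The two-sided exact permutation test gave p = 0.114. Centred on the library medians the log2 difference was −0.29, and without each library in turn it lay between −0.58 and −0.32. The values rest on 135 to 509 reads per library.

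Tlr13 (chrX:103338543-103355832, plus strand, mm9), an endosomal receptor of mice for bacterial ribosomal RNA, had the highest RPKM of the nucleic acid sensors analysed here, which did not include Tlr9. It was at 19.0, 28.5, 32.7 and 25.3 RPKM in PBS neutrophils and at 29.3, 32.2 and 50.3 RPKM in MC-21 neutrophils. MC-21 replicates 2 and 3 lay between the highest pair of PBS libraries, and MC-21 replicate 4 was above all others. Tlr13 had a log2 difference of 0.47 (SE 0.24, 95% interval −0.06 to 1.00, adjusted p = 0.396 by limma), and it dropped to 0.24 without MC-21 replicate 4, the library on which this value leans. The exact permutation test gave p = 0.143. Against Myd88 the groups were apart, at ratios of 0.287 to 0.526 in PBS neutrophils and 0.603 to 0.717 in MC-21 neutrophils. Tlr13 and its chaperone Unc93b1 lay on opposite sides of 0, but their ratio overlapped between the groups. The Tlr13 start region is shown for comparison with those of Tlr1 and Tlr6, with GAGGAA in capitals as above.
Tlr13, chrX:106143025-106143324, plus strand: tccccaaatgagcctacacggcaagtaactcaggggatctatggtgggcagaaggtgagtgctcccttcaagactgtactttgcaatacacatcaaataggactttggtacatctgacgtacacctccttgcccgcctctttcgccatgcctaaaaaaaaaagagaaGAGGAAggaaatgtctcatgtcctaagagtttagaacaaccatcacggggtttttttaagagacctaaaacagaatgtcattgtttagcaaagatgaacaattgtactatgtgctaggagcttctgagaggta
Here GAGGAA begins 83 bases before the start site, and it was also found in the Tlr8 window, in 3 of the 8 windows of the 6 genes with a RefSeq entry. The Tlr13 window also held 1 CEBP match, beginning at the start site.

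Tlr8 and Tlr7, endosomal receptors for single-stranded RNA, are neighbours on chromosome X, at chrX:163680626-163702261 and chrX:163742861-163768490 (mm9, both on the minus strand), with 40599 bases between them. Tlr8 was at 0.287, 1.01, 1.79 and 0.150 RPKM in PBS neutrophils and at 1.77, 2.37 and 0 RPKM in MC-21 neutrophils. These values stand for 4, 17, 24 and 3 reads in the PBS libraries and 32, 19 and 0 reads in the MC-21 libraries. A transcript length of 5047 bases, chosen to make the reads whole, underlies these counts. Libraries of both groups were thus high or almost empty, and the counting intervals of PBS replicates 7 and 8, of 1.15 to 2.66 RPKM and 0.0309 to 0.439 RPKM (95%, exact Poisson), did not meet. The interval of the 0 reads in MC-21 replicate 4 reached 0.263 RPKM. Tlr8 had a log2 difference of 0.31 with a 95% interval of −0.72 to 1.34 (adjusted p = 0.792 by limma), so no direction was detectable. The value was 0.85 without MC-21 replicate 4 (adjusted p = 0.453 by limma), 0.18 without PBS replicate 5 and 0.12 without PBS replicate 8.

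Tlr7 was at 0.454, 0.377, 0.378 and 1.14 RPKM in PBS neutrophils and at 1.06, 0.158 and 1.36 RPKM in MC-21 neutrophils. Behind these values were 5, 5, 4 and 18 reads in PBS libraries and 15, 1 and 15 reads in MC-21 libraries. The transcript length behind these counts was chosen in the same way as for Tlr8. PBS replicate 8 was higher than the other PBS libraries and within the MC-21 range, and MC-21 replicate 3, the shallowest library, was lowest of all. Tlr7 was not tested because of its low mean, and with no filter its log2 difference was 0.19 (95% interval −0.47 to 0.85, adjusted p = 0.797 by limma). Library by library the order of Tlr7 and Tlr8 was not fixed, with Tlr8 above Tlr7 in 4 of 7. In PBS replicate 8 and in MC-21 replicate 4, Tlr7 had 18 and 15 reads and Tlr8 had 3 and 0. Intervals from reads cover counting error only, since reads that stem from 1 molecule cannot be told apart here.

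**Figure D4:**
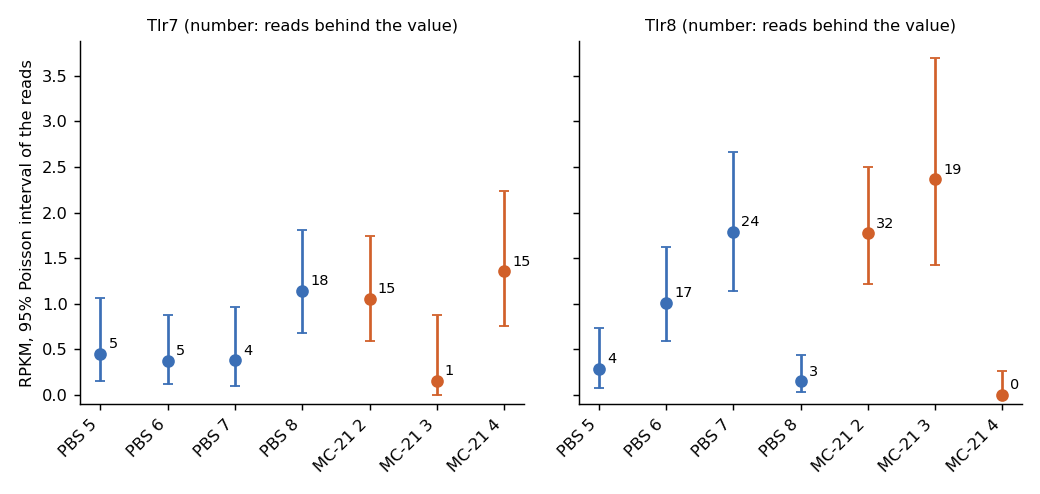
RPKM of Tlr7 (left) and Tlr8 (right) in each library with the 95% exact Poisson interval of the reads behind it, the number of reads being printed beside each point; PBS libraries are blue and MC-21 libraries orange. High and low libraries occur in both groups, from 1 to 18 reads for Tlr7 and from 0 to 32 reads for Tlr8.

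Myd88 (chr9:119245052-119250529, minus strand, mm9), the adaptor shared by these receptors, was at 66.3, 54.2, 62.8 and 57.6 RPKM in PBS neutrophils and at 48.2, 53.4 and 70.2 RPKM in MC-21 neutrophils. The MC-21 libraries held both the lowest and the highest value, and the PBS libraries lay between them. For Myd88 the log2 difference was −0.08 (SE 0.16, 95% interval −0.45 to 0.28, adjusted p = 0.843 by limma). It was 0.079 with centred libraries and 0.028 without MC-21 replicate 2, so its sign is not determined. Myd88 overlaps Acaa1a, which lies on the opposite strand, and the sources used here do not state whether counting used the strand.

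The summed TLR transcripts overlapped between the groups. Over the 11 TLR genes with a row, there were 256.5 to 353.9 RPM in PBS neutrophils and 309 to 438.5 RPM in MC-21 neutrophils. Of these reads, Tlr2 made up 38.3% to 48.2% in PBS and 37.6% to 39.6% in MC-21 neutrophils, and Tlr13 made up 29.7% to 40.5% and 37.7% to 46.1%. Tlr6 contributed 7.90% to 11.6% and 8.87% to 10.6%. Tlr1 contributed 3.91% to 5.08% in PBS and 1.94% to 2.21% in MC-21 neutrophils. These shares did not overlap, but they restate the approximate Tlr1 reads given above. TLRs with a row but outside the chosen list were scarcely detected, with at most 1 read of Tlr3, 2 of Tlr5, 1 of Tlr11 and 6 of Tlr12 in a library, and none of these 4 was tested.

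Further genes of the pathway were taken from 7 lists of 58 genes, of which 47 were tested. None passed an adjusted p under 0.05 in limma, and at an unadjusted p under 0.05 there were 3 lower and 8 higher in MC-21 neutrophils, beside 11.2% and 3.59% of all genes. The median log2 difference of the 47 was −0.10, beside −0.15 over all genes. The groups did not overlap for 3 genes that were lower and 6 that were higher, against 10.2% and 3.1% of all genes.

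Among 12 co-receptors and chaperones (10 tested), Cd14 had the largest positive difference. Cd14, the surface protein that hands LPS to TLR4 and also aids TLR2, was at 391, 671, 800.4 and 581 RPKM in PBS neutrophils and at 1345, 1071 and 1430 RPKM in MC-21 neutrophils. The lowest MC-21 library thus exceeded the highest PBS library, PBS replicate 7. The log2 difference was 1.11 (SE 0.23, adjusted p = 0.0739 by limma), and over 14 alternatives its adjusted p lay between 0.0465 and 0.232 and was under 0.05 in 1, with centred libraries. The largest negative difference in this list was that of Ly86, which encodes MD-1, the partner of the TLR-like protein CD180. It was at 58.7 ± 14.7 RPKM (SD, n = 4) in PBS and 31.8 ± 19.2 RPKM (SD, n = 3) in MC-21 neutrophils (log2 difference −0.999, adjusted p = 0.264 by limma), and the groups overlapped.

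Among the 3 interferon regulatory factors of the pathway, Irf7, which drives type I interferon genes downstream of MyD88 in the endosomal route, was at 67.7, 142, 94.0 and 92.7 RPKM in PBS neutrophils and at 348, 236 and 184 RPKM in MC-21 neutrophils. The groups did not overlap, with the lowest MC-21 library above PBS replicate 6, the highest of its group. Irf7 had a log2 difference of 1.36 (SE 0.27, adjusted p = 0.0697 by limma). Over 14 alternatives its adjusted p lay between 0.0320 and 0.210 by limma and was under 0.05 in 2, with centred libraries (0.0323) and without PBS replicate 6 (0.0320). Irf5, another factor that MyD88 engages, was at 25.5 ± 4.28 RPKM (SD, n = 4) and 20.5 ± 0.707 RPKM (SD, n = 3), with a log2 difference of −0.29 (adjusted p = 0.461 by limma).

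Of 18 kinases and ligases next to the receptors, 17 were tested. The only one with an unadjusted p under 0.05 was Peli1, a ubiquitin ligase that acts on IRAK proteins, at 28.4 ± 4.73 RPKM (SD, n = 4) and 39.7 ± 6.71 RPKM (SD, n = 3), without overlap (log2 difference 0.47, adjusted p = 0.286 by limma). The lowest difference among them was that of Tbk1, a kinase that activates IRF3, at −0.44 (adjusted p = 0.633 by limma). The adaptors Tirap, which bridges TLR2 and TLR4 to MyD88, and Ticam1, the adaptor of the MyD88-independent route, had log2 differences of 0.01 and −0.12 (adjusted p = 0.987 and 0.823 by limma).

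Among 11 inhibitors (10 tested), Tnfaip3, which encodes the NF-κB inhibitor A20, was at 18.3, 32.2, 36.4 and 25.1 RPKM in PBS neutrophils and at 47.0, 57.6 and 45.4 RPKM in MC-21 neutrophils. The groups were apart, and the log2 difference was 0.85 (SE 0.23, adjusted p = 0.156 by limma). Sigirr, a receptor that dampens TLR signalling, had the lowest difference in this list at −0.71 (adjusted p = 0.403 by limma). Its levels were low, at 1.32 to 3.81 RPKM in PBS neutrophils and at 1.55, 1.58 and 0.181 RPKM in MC-21 neutrophils, with overlap. Of the 5 proteases that cleave endosomal TLRs, Ctss, which encodes cathepsin S, was at 170, 284, 377 and 226 RPKM in PBS neutrophils and at 151, 124 and 106 RPKM in MC-21 neutrophils. No library overlapped with the other group for Ctss (log2 difference −1.01, SE 0.25, adjusted p = 0.129 by limma). Ctsk, which encodes cathepsin K, was at 2.39 ± 0.587 RPKM (SD, n = 4) and 4.37 ± 2.06 RPKM (SD, n = 3), with overlap (log2 difference 0.61, adjusted p = 0.332 by limma). Macrophages also express Ctss, Cd14 and Ly86 strongly. By their means, Ctss and Ly86 were lower and Cd14 was higher in MC-21 neutrophils. The part of the lower macrophage markers in MC-21 libraries in these values was not tested.

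**Figure D5:**
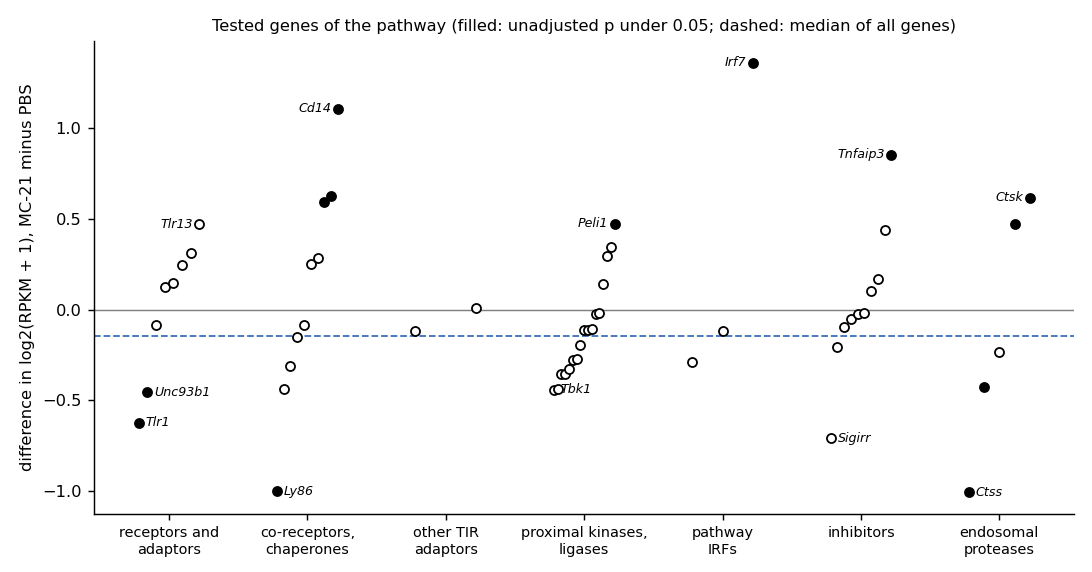
Difference in log2(RPKM + 1), MC-21 minus PBS, for each tested gene of the receptors and adaptors and of the pathway lists, ordered within a list; filled points have an unadjusted p under 0.05 by limma and the dashed line is the median of all genes at −0.15. Irf7 and Cd14 are the highest points, and Ctss and Ly86 the lowest.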

How the data were processed

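Neutrophils of 4 PBS-treated and 3 MC-21-treated mice were profiled by 3′ RNA-seq on an Illumina NextSeq, 1 library per liver. The authors mapped reads to mm9 with HISAT 0.1.5, converted alignments with SAMtools and computed the deposited RPKM values with Partek Genomics Suite 6.6. The transcript annotation, the handling of multiply mapped reads, strand and molecular barcodes are not given in the sources used here. A further 3 columns of the table held no values and were not used. No columns held the authors' comparisons.

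The 9594 of 16047 genes whose mean over all libraries was 1 RPKM or more were tested on log2(RPKM + 1) with limma 3.58.1 (R 4.3.3; eBayes with trend, two-sided, Benjamini-Hochberg over all genes tested), without covariates. Fold changes on this scale understate those of genes near 1 RPKM. Single genes were also tested by an exact permutation test (35 arrangements of the libraries, smallest p 0.0286). The script was tested on simulated data. P-values measure the spread between these livers.

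Depth was read from the steps between low RPKM values. That value lay within 1% of the estimate from 453 of 982 low genes. In a transcript of 1 kb, 1 RPKM then stands for 1.59 to 3.96 reads. Reads were whole to within 0.05 for 6 of the 9 genes and approximate for Tlr1, Tlr4 and Tlr6. Of the 6, only Unc93b1 was whole at an annotated length. For Tlr2, Tlr7, Tlr8, Tlr13 and Myd88 a transcript length was searched that makes the reads whole, so wholeness is no check on it. For Tlr8 this length was 5047 bases, against 3431 in the longest annotated transcript. Reads, RPM and counting intervals of the searched genes depend on the lengths found. Promoters came from RefSeq (GRCm38.p6), with an entry for 6 genes, and gene positions from the GENCODE annotation of mm9. Coordinates of the builds were not converted.

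The genes, the pathway and marker lists and the alternatives were chosen with earlier results of these data known. All genes of the family with a row were named. Of the pathway lists, a gene was named if its adjusted p was under 0.05, if its unadjusted p was under 0.05 with at least a 2-fold change, or if it had the largest rise or fall of its list; of the marker lists, up to 3 genes of the highest mean. Alternatives were another pseudocount, other filters, scalings and trends, and leaving out each library. Lists of other liver cells were also summed: Kupffer cell markers were at 56.3 to 84.4 RPKM in PBS and 34.3 to 64.4 RPKM in MC-21 libraries, B cell and plasmacytoid dendritic cell markers at 10.7 to 31.1 and 6.64 to 10.5 RPKM, hepatocyte markers at 165 to 439 and 171 to 290 RPKM, and T and NK cell markers at 7.21 to 12.4 and 3.66 to 11.1 RPKM.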

Additional observations from a re-analysis of the deposited data

Results flagged for a closer look

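Tlr7 in PBS neutrophils had a library far from the others. PBS replicate 8 was at 1.14 RPKM and the other 3 PBS libraries at 0.377 to 0.454 RPKM, so that the gap made up 0.899 of the whole range, above the 95% critical value of Dixon's test for 4 samples. The values stand for 18 reads in PBS replicate 8 and 4 or 5 reads in each of the others. Chance gives such a gap in about 1 in 20 groups, and 9 genes were examined.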

How the results depend on the processing

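Over 14 alternatives, 103 of 106 log2 differences of the 8 genes kept their direction and their side of the adjusted p threshold, and the lowest adjusted p of any of them was 0.207 by limma. The 3 that reversed were Myd88, at 0.079 with centred libraries and 0.028 without MC-21 replicate 2, and Tlr2, at −0.031 without MC-21 replicate 4; Myd88 ranged from −0.24 (without MC-21 replicate 4) to 0.028 with 1 library left out. The median of the 8 moved to 0.30 with centred libraries and lay between 0.04 and 0.22 without each library in turn. Genes called at an adjusted p under 0.05 numbered 6 with no filter and 9 (without PBS replicate 8) to 102 (without PBS replicate 6) with 1 library left out, against 60. Without PBS replicate 7, MC-21 replicate 2, MC-21 replicate 3 or MC-21 replicate 4 they numbered 14, 19, 35 and 18. Genes past an unadjusted p under 0.05 and a 2-fold change numbered 433 with a pseudocount of 0.1, 153 with a mean of at least 5 RPKM and 231 to 368 with 1 library left out, against 259. Of the 8 genes, 0 were called with 1 library left out by either rule. Tlr1 lost its unadjusted p under 0.05 with centred libraries, with quantile normalization and without MC-21 replicate 3 (adjusted p = 0.489, 0.492 and 0.374 by limma). Unc93b1 lost it with centred libraries, with quantile normalization, in limma without a trend and without any of PBS replicates 5, 6 and 8 and MC-21 replicates 3 and 4 (adjusted p 0.349 to 0.587 by limma). Tlr13 gained it with centred libraries, with quantile normalization and without PBS replicate 7 or MC-21 replicate 2 (adjusted p 0.334 to 0.429 by limma). Ranked by reads instead of RPKM, Tlr2 came 1st, Tlr13 2nd, Myd88 3rd, Unc93b1 4th, Tlr4 6th and Tlr1 7th. Tlr1 and Tlr4 gave no value with a mean of at least 5 RPKM, nor did Tlr8 there and in 3 settings with 1 library left out. No paired analysis was possible because the groups share no replicate numbers. Depth limits Tlr7 and Tlr8 most.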
